A study of Mus musculus with 2 samples.

Results

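CtBP2 (C-terminal binding protein 2) occupancy was examined at the genes that encode CtBP2 itself, its paralogue CtBP1 and 5 proteins of the corepressor machinery. The 7 genes were Ctbp2, Ctbp1, Kdm1a, Rcor1, Hdac1, Hdac2 and Hdac3, and each was taken as a fixed window of 45 to 190 kb on mouse build mm9. Within these windows 14 of the 29388 CtBP2 regions of the genome were found. Ctbp2 and Ctbp1 stand for the family, Kdm1a, Rcor1, Hdac1 and Hdac2 for its known partners, and Hdac3 was chosen by the high ChIP fold of a region in its window. Values of these same libraries were thus known when the genes were chosen, and all values below are a description with no test.

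The cells were MIN6, a mouse insulinoma line that secretes insulin in response to glucose, grown without any special treatment and carrying no stated genetic change. The groups were 1 chromatin immunoprecipitation (ChIP) library, for which fixed and sonicated chromatin was precipitated with anti-CtBP2, and 1 input library from chromatin that no antibody had touched. The ChIP library held 34890624 aligned reads and the input 20896067. Keeping 1 read for each 5 prime end and strand on the 21 nuclear chromosomes left 8474671 and 12471942 distinct reads. There was 1 library per group, so no replicate spread could be measured. Intervals are thus 95% intervals that cover counting error only. They treat distinct reads as independent, which amplified reads without molecular identifiers need not be, so they may be too narrow. A control IgG precipitation was not analysed here, so DNA that any antibody would bring down cannot be told apart from DNA bound by CtBP2. RNA and protein were not measured, so the beta cell identity of the culture could not be checked against marker genes.

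CtBP proteins have no DNA-binding domain of the usual kind. They form dimers that bind NAD(H) and are brought to chromatin by transcription factors such as ZEB1 and ZEB2, where they gather enzymes that remove active histone marks. Among these enzymes are the histone deacetylases HDAC1 and HDAC2 and the histone H3 demethylase KDM1A (LSD1), which RCOR1 (CoREST) joins to the deacetylases. HDAC3 is best known as the deacetylase of the related NCoR and SMRT corepressor complexes.

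CtBP2 ChIP reads in every window were gathered into short stretches. All 7 windows held at least 1 region, where a region is a set of 200 bp windows with at least 3 times the expected ChIP count, joined when close. With windows of at least 10 times the mean input left out, 5 of the 7 windows held a region, and Ctbp1 and Rcor1 held none. The top ChIP steps of all 7 main regions, with 13 to 41 input reads, were among the windows left out. Calls that remained in the 5 windows lay in other parts of a main region or elsewhere in the window. Their number thus does not show that the main regions persist. In the Kdm1a main region, the steps with 59, 71, 226 and 201 ChIP reads held 19, 20, 27 and 37 input reads. Across the genome, 1.00% of the 26834433 windows with a read passed this rule, and 56.1% of 100 kb stretches held at least 1 region. A region with at least 567 ChIP reads, the fewest in the main region of any member, was present in 9.83% of 100 kb stretches. Since the genes were chosen with these reads in view, nothing is read from the excess of the members over those shares. The main region of a window is the one with the most distinct ChIP reads, wherever it lies in the window. A gene name given with a main region below names the window. Regions covered 1.00% of the Kdm1a window and 7.11% of the Hdac3 window, the lowest and the highest share among the 7. They held 80.2% to 95.4% of the distinct ChIP reads of their window against 17.7% to 56.7% of the input reads.

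**Figure D1:**
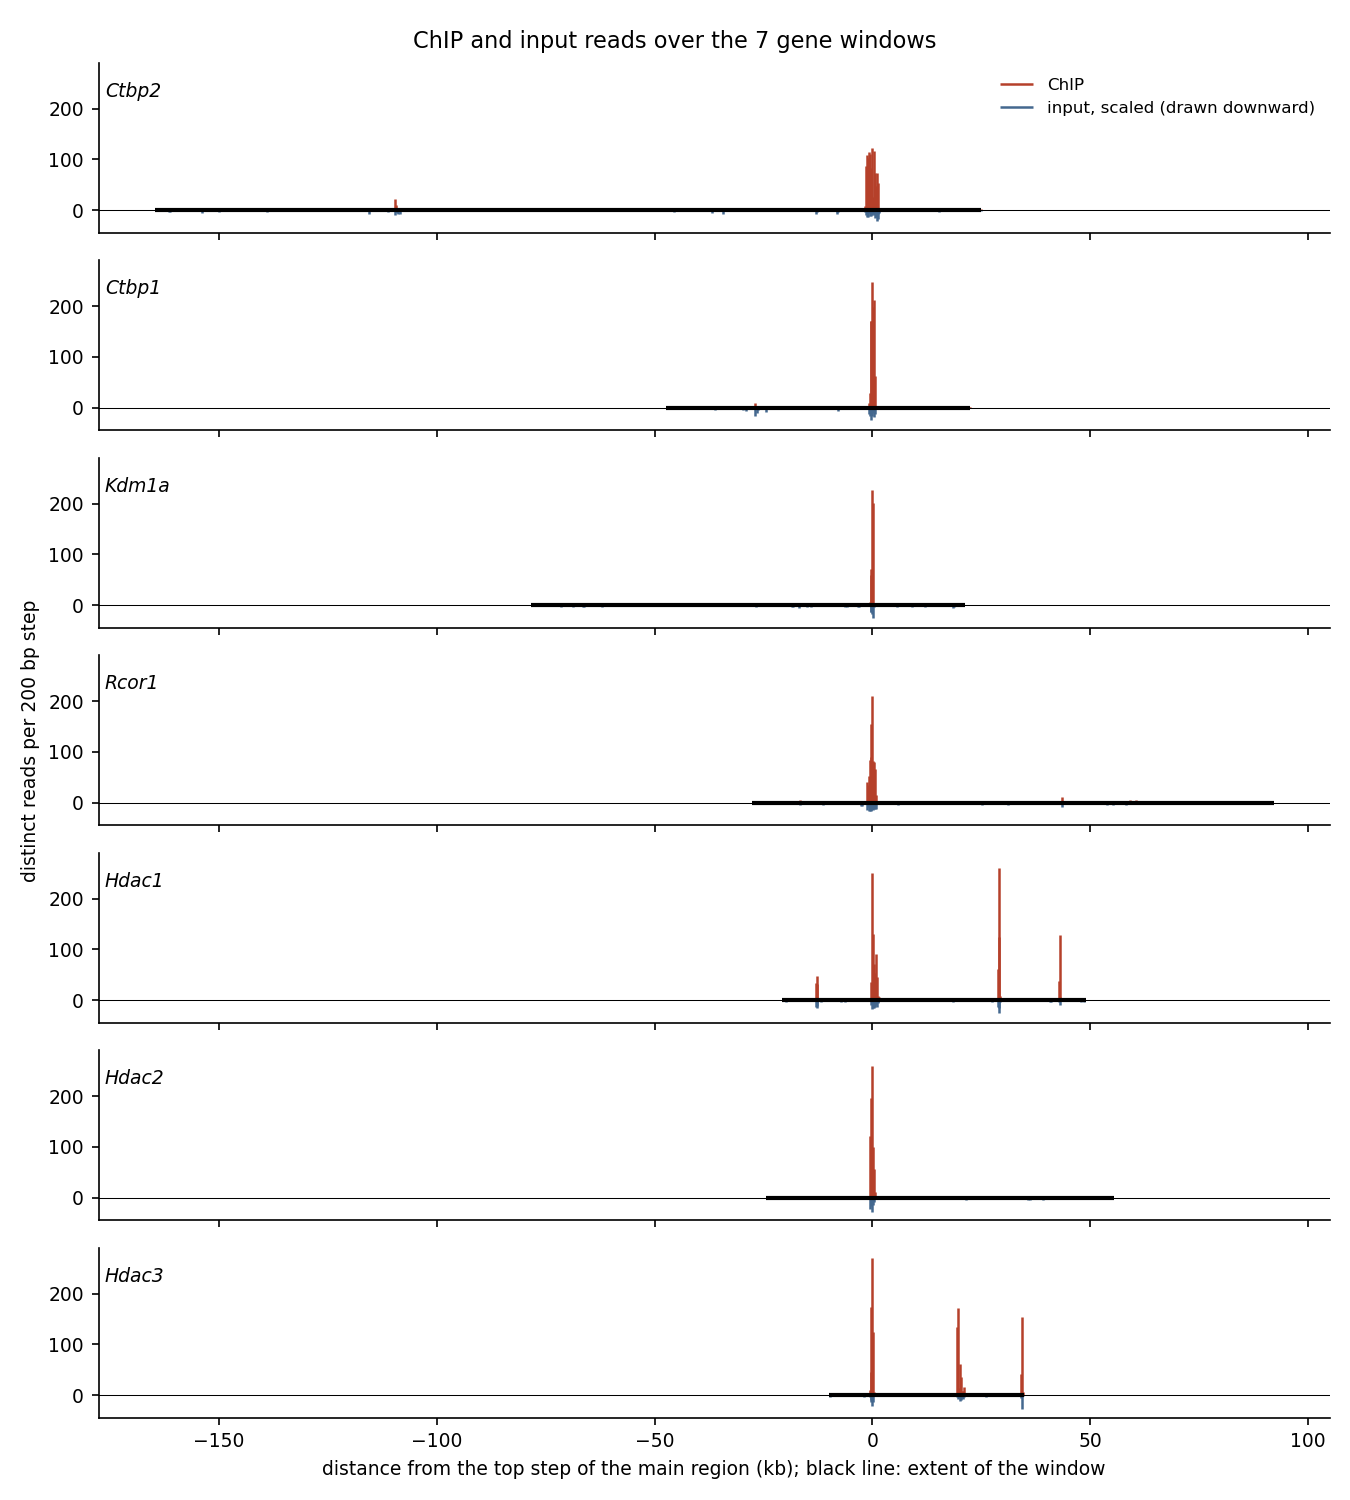
Distinct ChIP reads (upward) and scaled input reads (downward) per 200 bp step over each of the 7 windows, against the distance in kb from the step with the most ChIP reads in the main region. Single tall groups stand in the Ctbp1, Kdm1a, Rcor1 and Hdac2 windows, and Ctbp2 has 1 weak region 109.6 kb from its main one. Hdac1 and Hdac3 have 4 regions each in the main setting of the call.

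Outside the regions both libraries were sparse, with the most ChIP reads per kb in the Ctbp1 window. The Ctbp2 window held 1.26 ChIP and 4.06 input reads per kb there, and the Ctbp1 window 2.08 and 5.72. In the other windows the ChIP density outside regions ran from 1.03 (Hdac2) to 1.53 (Hdac1) reads per kb. Over all sequence outside regions the values were 1.199 ChIP and 4.41 input reads per kb. The ratio of ChIP to input there, with input scaled by the total of distinct reads (a factor of 0.679), was 0.401 for the genome and 0.331 (Hdac2) to 0.556 (Hdac3) for the 7 windows. The highest count of ChIP reads in any 200 bp step outside regions was 10, in the Rcor1 window.

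The window of the gene for CtBP2 itself held the widest of the 7 main regions, with the most ChIP reads. It ran over 2950 bp, at chr7:140313251-140316200, wider than 99.9% of all regions in the genome, whose median width was 500 bp. It held 1187 distinct ChIP reads (95% Poisson interval 1120 to 1256) and 245 input reads (215 to 278). That is 402 ChIP reads per kb, the lowest density of the 7 main regions. ChIP over scaled input was 7.13 (exact binomial interval 6.21 to 8.22).

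Within that region ChIP reads were spread over many steps and did not form 1 summit. Of its 15 steps of 200 bp, 11 held at least 0.5 of the highest step. In the Ctbp1 main region 5 of 7 steps did, and 2 steps in each of the other 5. From left to right the first 8 steps held 9, 87, 108, 102, 115, 110, 63 and 84 ChIP reads. The next 7 held 122, 25, 116, 73, 47, 73 and 53. The step of 25 reads, 200 bp wide between neighbours of 122 and 116, had 10 input reads against 13 and 14 in those neighbours. Input was highest, at 31 reads, 1000 bp from the step with the most ChIP reads, and ChIP over scaled input per step ran from 2.65 to 24.2. The right part was thus denser in input and lighter in ChIP than the left part.

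The other Ctbp2 region was weak. It lay 109.6 kb away, at chr7:140205201-140205550, with 31 ChIP reads (21.1 to 44.0) and 20 input reads (12.2 to 30.9), a ratio of 2.28 (1.26 to 4.22). Ctbp2 is a long gene that also gives rise to RIBEYE, a protein of synaptic ribbons, from an alternative start. No annotation of mm9 was used here, so neither region was assigned to a start site. In the RefSeq gene order of build GRCm38.p6 the protein-coding neighbours of Ctbp2 are Zranb1 and Gm35364.

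The paralogue Ctbp1 had 1 compact region of much higher read density. At chr5:33616901-33618200, 1300 bp held 1072 ChIP reads (1009 to 1138) and 151 input reads (128 to 177). Its 825 ChIP reads per kb were above those of 99.5% of all regions, while the Ctbp2 region stood above 76.9%. The ratio of 10.5 (8.80 to 12.5) was the highest of the 7 main regions, and its interval did not overlap that of Ctbp2. That holds for ratios over whole regions. In the step with the most ChIP reads the ratios were 14.5 for Ctbp1 and 13.8 for Ctbp2. No region was called here once windows of dense input were left out. The 7 steps held 28, 170, 170, 247, 199, 212 and 63 ChIP reads. Input in the same steps was 25, 35, 21, 25, 17, 27 and 19 reads. Reads fell sharply at the right edge, from 63 to 1 ChIP read in the next step. The protein-coding genes next to Ctbp1 are Spon2 and Maea.

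The RefSeq promoter windows of the CtBP genes are shown because they differ in CpG content, a feature of promoters that the choice of genes did not use. Each runs from 250 bases before to 50 after an annotated start on build GRCm38.p6, and capitals mark CG dinucleotides. That build differs from the mm9 of the reads, no position was converted, and no read count was laid over these sequences. Whether any of these windows lies in a CtBP2 region was therefore not tested. Their CpG content is not a value of the regions, for Ctbp2 in particular. The Ctbp2 windows lie closer together than the Ctbp2 regions, which are 109.6 kb apart. If spacing is alike in the builds, these windows cannot both lie in those regions. Whether RefSeq lists every Ctbp2 start was not checked. The Ctbp1 window is chr5:33274955-33275254 on the minus strand. The Ctbp2 windows, for separate annotated starts, are chr7:133081811-133082110 and chr7:133015198-133015497, also on the minus strand. The Rcor1 window, chr12:111039117-111039416 on the plus strand, is shown for a partner gene.
Ctbp1: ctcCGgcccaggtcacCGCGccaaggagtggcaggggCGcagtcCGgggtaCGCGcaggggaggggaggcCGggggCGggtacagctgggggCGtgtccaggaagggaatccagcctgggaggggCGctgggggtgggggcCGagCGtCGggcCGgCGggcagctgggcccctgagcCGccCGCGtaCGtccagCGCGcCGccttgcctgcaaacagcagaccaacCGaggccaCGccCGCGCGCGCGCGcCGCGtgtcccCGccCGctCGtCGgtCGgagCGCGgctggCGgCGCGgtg
Ctbp2 first start: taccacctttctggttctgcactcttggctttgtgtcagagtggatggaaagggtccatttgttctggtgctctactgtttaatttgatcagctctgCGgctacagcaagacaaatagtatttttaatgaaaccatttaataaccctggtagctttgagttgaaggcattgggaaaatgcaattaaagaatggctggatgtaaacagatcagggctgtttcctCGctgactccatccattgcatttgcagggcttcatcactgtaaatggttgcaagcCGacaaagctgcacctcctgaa
Ctbp2 second start: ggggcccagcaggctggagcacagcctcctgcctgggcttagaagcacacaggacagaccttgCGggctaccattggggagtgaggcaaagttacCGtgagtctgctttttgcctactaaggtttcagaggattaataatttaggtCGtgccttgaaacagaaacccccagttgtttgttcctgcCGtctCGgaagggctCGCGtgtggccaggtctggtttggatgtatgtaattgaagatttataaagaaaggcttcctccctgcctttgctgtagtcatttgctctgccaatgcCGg
Rcor1: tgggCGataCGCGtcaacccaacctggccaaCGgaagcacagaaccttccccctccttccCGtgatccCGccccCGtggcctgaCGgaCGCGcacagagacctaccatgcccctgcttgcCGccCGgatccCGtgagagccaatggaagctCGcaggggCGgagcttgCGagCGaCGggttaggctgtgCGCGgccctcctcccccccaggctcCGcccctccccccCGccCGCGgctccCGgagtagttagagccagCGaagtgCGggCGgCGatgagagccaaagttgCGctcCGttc
The Ctbp1 sequence held 43 CpG and was 78.7% G or C, with more CpG than 97.4% of the 32851 promoter windows in the RefSeq table. The Ctbp2 sequences held 3 and 8 CpG, more than 23.3% and 51.4% of those windows, whose median was 7, and were 43.7% and 52.0% G or C.

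Promoter windows were matched by symbol for 5 of the 7 genes, 6 windows in all. The partner genes were CpG-rich as Ctbp1 was, with 36 CpG for Hdac2, 31 for Rcor1 and 29 for Kdm1a, more than 93.8%, 89.4% and 87.1% of all windows. Short motifs were searched on both strands, and none of the motifs contains another. The GC box GGGCGG, read by SP and KLF factors, occurred 6 times in Rcor1, 3 times in Ctbp1 and once in Hdac2, and 35.7% of all windows held it. CCAAT was present in 4 of the 6 windows, both Ctbp2 windows included, against 37.4% of all windows. The ZEB-type E-box CACCTG (20.2% of all windows) and the ETS core CCGGAA (14.9%) were not found in these 6 windows.

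Kdm1a, which encodes the demethylase, had the smallest main region. At chr4:136157901-136158900, 1000 bp held 567 ChIP reads (521 to 616) and 111 input reads (91.3 to 134), a ratio of 7.52 (6.12 to 9.30). Its 6 steps held 7, 59, 71, 226, 201 and 5 ChIP reads against 3, 19, 20, 27, 37 and 7 input reads. The 3 highest steps took 87.5% of the reads, so the region was sharp, with an abrupt edge on the right. No other region was called in its window of 100 kb, where 140 ChIP and 515 input reads lay outside the region.

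Rcor1, the gene of the scaffold that holds KDM1A and the deacetylases together, had a broad region with a clear summit. At chr12:112276401-112278550, 2150 bp held 908 ChIP reads (850 to 969) and 226 input reads (198 to 258). The ratio of 5.91 (5.11 to 6.87) was the lowest of the 7 main regions, and its interval lay below those of Ctbp1 and Hdac3. This region, too, was not called with dense input left out. Along the 11 steps ChIP reads were 41, 34, 53, 84, 90, 155, 211, 81, 79, 66 and 14. Input reads in those steps were 23, 12, 24, 24, 23, 25, 19, 21, 19, 19 and 19. Input thus stayed between 12 and 25 reads per step while ChIP peaked in the middle, and the top step alone had a ratio of 16.3, the highest of the 7 top steps.

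**Figure D2:**
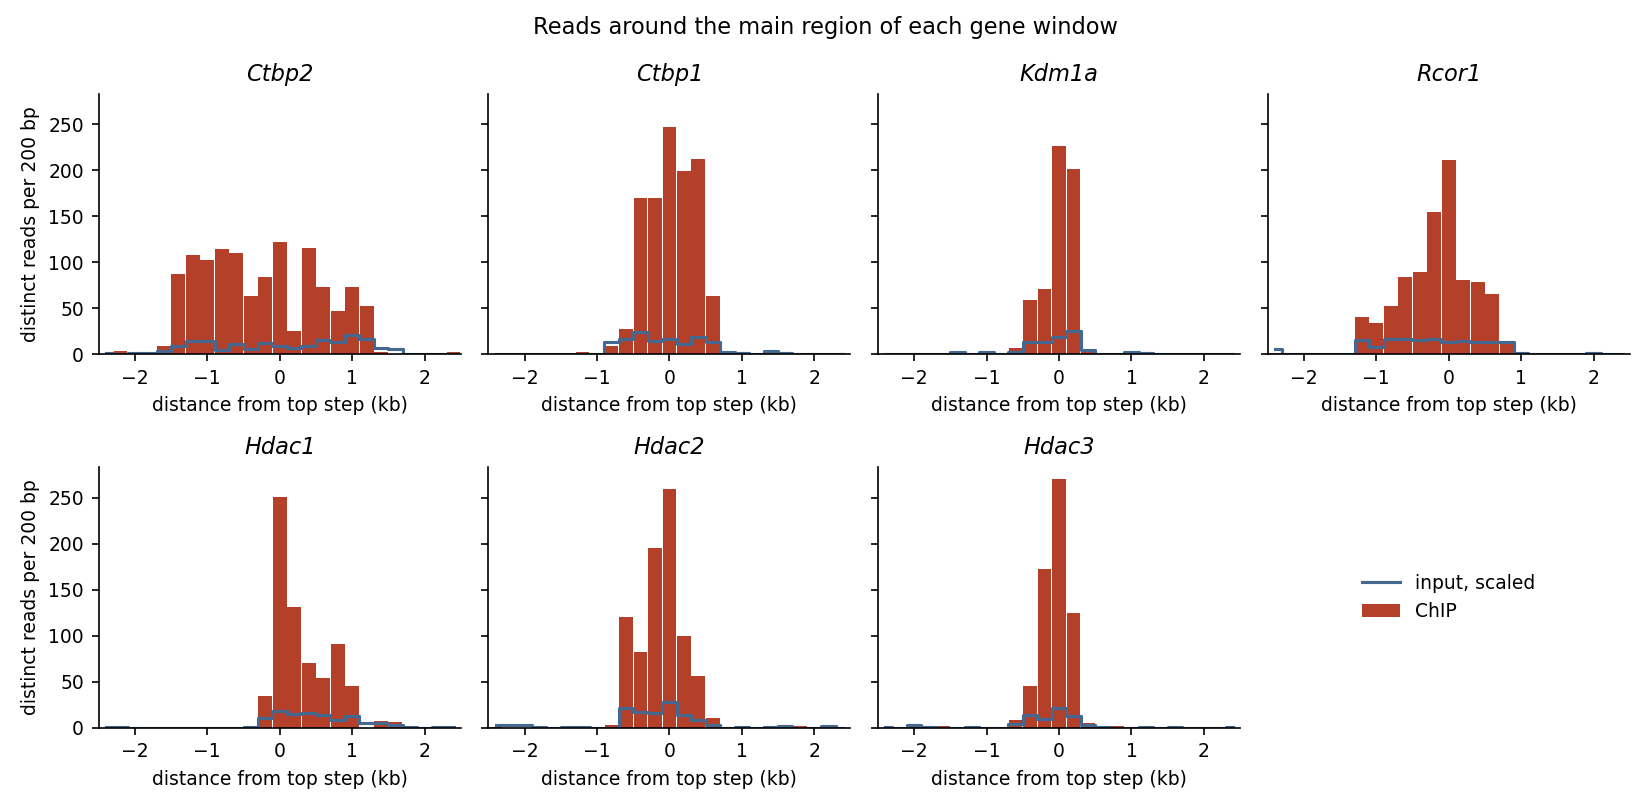
Distinct ChIP reads (bars) and scaled input reads (line) per 200 bp step, within 2.4 kb of the top step of each main region. Ctbp2 is broad and uneven, with no step above 122 reads and a dip to 25 beside the top step. The top steps of the other 6 main regions hold 211 to 270 reads.

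The deacetylase genes Hdac1 and Hdac2 are close paralogues whose products share complexes. Their windows differed in the number of regions, which counts all regions in a window and is not a contrast between the genes. Hdac2 had 1 region, at chr10:36693751-36695150, with 827 ChIP reads (772 to 885) and 158 input reads (134 to 185) over 1400 bp. Its ratio was 7.70 (6.49 to 9.19). The 8 steps held 3, 121, 82, 196, 260, 100, 56 and 11 ChIP reads against 0, 32, 25, 23, 41, 21, 12 and 4 input reads. The step with the most ChIP reads was also the step with the most input reads, and its ratio of 9.33 was the lowest of the 7 top steps. Neighbouring genes Hs3st5 and Marcks are the nearest coding genes in the RefSeq order.

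Hdac1 had 4 regions. The main one, at chr4:129190601-129192000, held 678 ChIP reads (628 to 731) and 139 input reads (117 to 164), a ratio of 7.18 (5.97 to 8.68). Its steps held 35, 251, 131, 71, 54, 91 and 45 ChIP reads, a sharp summit at the left with a lower shoulder to the right. A region 29.0 kb to the right, at chr4:129219601-129220300, had fewer reads, 454 ChIP and 87 input, but the highest single step of the window, with 261 ChIP and 24 input reads. Their ratios, 7.18 and 7.68 (6.09 to 9.78), overlapped in their intervals.

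The remaining Hdac1 regions lay at the ends of the window. That at chr4:129177801-129178400, 12.8 kb to the left, held 113 ChIP and 61 input reads, a ratio of 2.73 (1.98 to 3.79). That at chr4:129233551-129234100, 43.0 kb to the right, held 172 ChIP and 22 input reads, a ratio of 11.5 (7.36 to 18.8). The 4 regions of 1 window thus covered nearly the whole range of ratios found among all 14. Marcksl1 and Lck flank Hdac1 in the RefSeq order, and which of these regions belong to Hdac1 was not settled here.

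The Hdac3 window, the shortest at 45 kb, was the most crowded, and 46.9% of its ChIP reads lay in the main region. At chr18:38094451-38095500, that region held 627 ChIP reads (579 to 678) and 92 input reads (74.2 to 113), a ratio of 10.0 (8.05 to 12.6). Its steps of 9, 46, 173, 270, 125 and 5 ChIP reads included the highest single step of all 7 windows. The region for which the gene was chosen lay 19.6 kb to the right, at chr18:38114301-38115600, with 425 ChIP reads (386 to 467) and 57 input reads (43.2 to 73.9). It had 2 parts, with steps of 134 and 172 reads, then 6 and 14, then 62 and 36.

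The fold of that chosen region and its ratio to input gave different pictures. In its best 200 bp window 265 ChIP reads stood against 3.40 expected, a fold of 78.0 (68.9 to 88.0). In the main region 295 reads stood against 12.2 expected, a fold of 24.1 (21.5 to 27.0). ChIP over scaled input across the whole region was 10.97 (8.31 to 14.7) in the first and 10.0 in the second, with overlapping intervals. The expected count is taken from input over 1 kb or more around the window. Input density was 43.8 reads per kb in the chosen region and 87.6 in the main one. By fold the chosen region stood above 99.99% of all regions, by ratio above 94.0% and by ChIP read density above 72.6%.

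Close to the chosen Hdac3 region lay a weak one of 22 ChIP and 15 input reads over 300 bp, at chr18:38115901-38116200, with a ratio of 2.16 (1.07 to 4.47). At the right end of the window, chr18:38129201-38129750 held 201 ChIP and 51 input reads, a ratio of 5.80 (4.25 to 8.05). Diaph1 and Rell2 are the coding neighbours of Hdac3, and these regions were likewise not assigned to a gene.

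**Figure D3:**
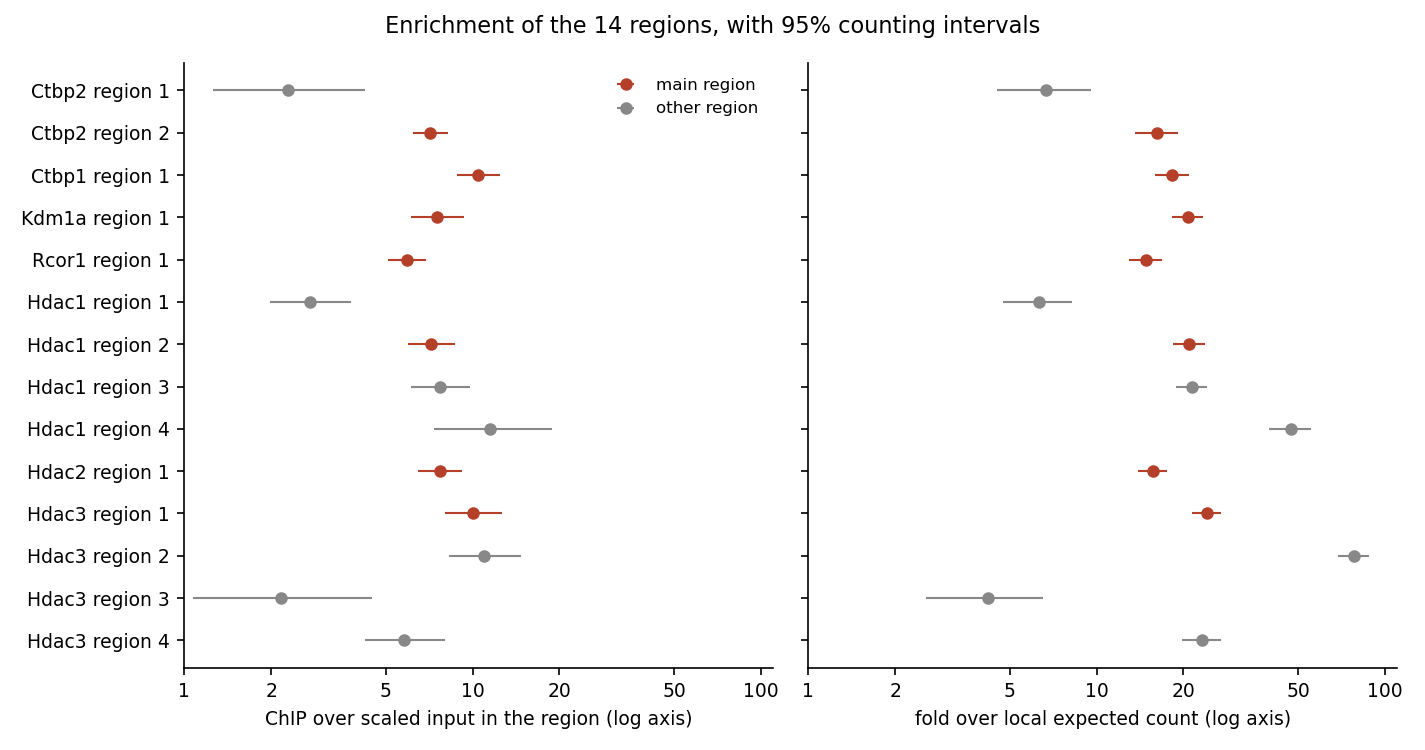
ChIP over scaled input across each of the 14 regions (left) and fold of the best 200 bp window over its local expected count (right), both on log axes, with 95% counting intervals. Main regions lie between 5.91 and 10.5 on the left, and Hdac3 region 2, at 78.0 on the right, has a ratio of 10.97 on the left, near that of Hdac3 region 1.

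Set in order, the main regions had ratios of 10.5 for Ctbp1, 10.0 for Hdac3, 7.70 for Hdac2, 7.52 for Kdm1a, 7.18 for Hdac1, 7.13 for Ctbp2 and 5.91 for Rcor1. Intervals of all neighbours in this order overlapped. For Hdac1 and Hdac3 it was not settled whether the main region lies at the named gene. This order, and the medians over main regions, may thus include regions of neighbouring genes. Other regions had ratios of 2.73 to 11.5 in the Hdac1 window and 2.16 to 10.97 in the Hdac3 window. The median over the 7 main regions was 7.52, against 4.09 over all 29388 regions. Median ChIP density was 567 reads per kb for the main regions and 108 for all regions, and median input density was 105 and 52.5. Main regions were picked as those with the most ChIP reads, which raises their ChIP density. The 7 other regions in the same windows had a median ChIP density of 313 reads per kb, a median input density of 57.1 and a median ratio of 5.80. In the genome, 5970 regions had an input density in the range of the main regions, 83.1 to 116 reads per kb. Their median ratio was 7.08 (interquartile range 4.42 to 9.03), and 5 of the 7 main regions lay inside that interquartile range.

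A ratio that needs no scaling between libraries gave another order. Each main region was set against the sequence outside regions in its own window, with reads of both libraries. It was 15.5 (12.7 to 18.99) for Ctbp2, 16.2 (12.9 to 20.4) for Rcor1, 18.0 (12.5 to 26.0) for Hdac3 and 18.3 (13.7 to 24.3) for Hdac1. Kdm1a had 18.8 (14.3 to 24.8), Ctbp1 19.5 (15.1 to 25.2) and Hdac2 23.3 (17.3 to 31.2). All 7 log-scale Wald intervals overlapped, and no pair of main regions was tested for a difference. With all deposited reads the median of this ratio rose from 18.3 to 29.9.

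Summits in ChIP filled a large part of the positions that distinct reads can take. A 200 bp step can hold 400 distinct reads, and the top step of the 7 main regions filled 30.5% (Ctbp2) to 67.5% (Hdac3) of them in ChIP and 3.25% to 10.3% in input. Deposited reads per position in the main regions were 2.08 (Ctbp2) to 3.22 (Hdac3) in ChIP and 1.09 to 1.25 in input. Outside regions and blocks of extreme depth, they were 1.58 and 1.10. How many of the repeats were copies made by amplification was not tested. With counts adjusted for positions already taken, Hdac3 moved from 10.0 to 13.4, Ctbp1 from 10.5 to 12.7, Ctbp2 from 7.13 to 7.90 and Rcor1 from 5.91 to 6.86. The Hdac3 main region then stood above that of Ctbp1, as it did with all deposited reads at 12.1 against 10.3.

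**Figure D4:**
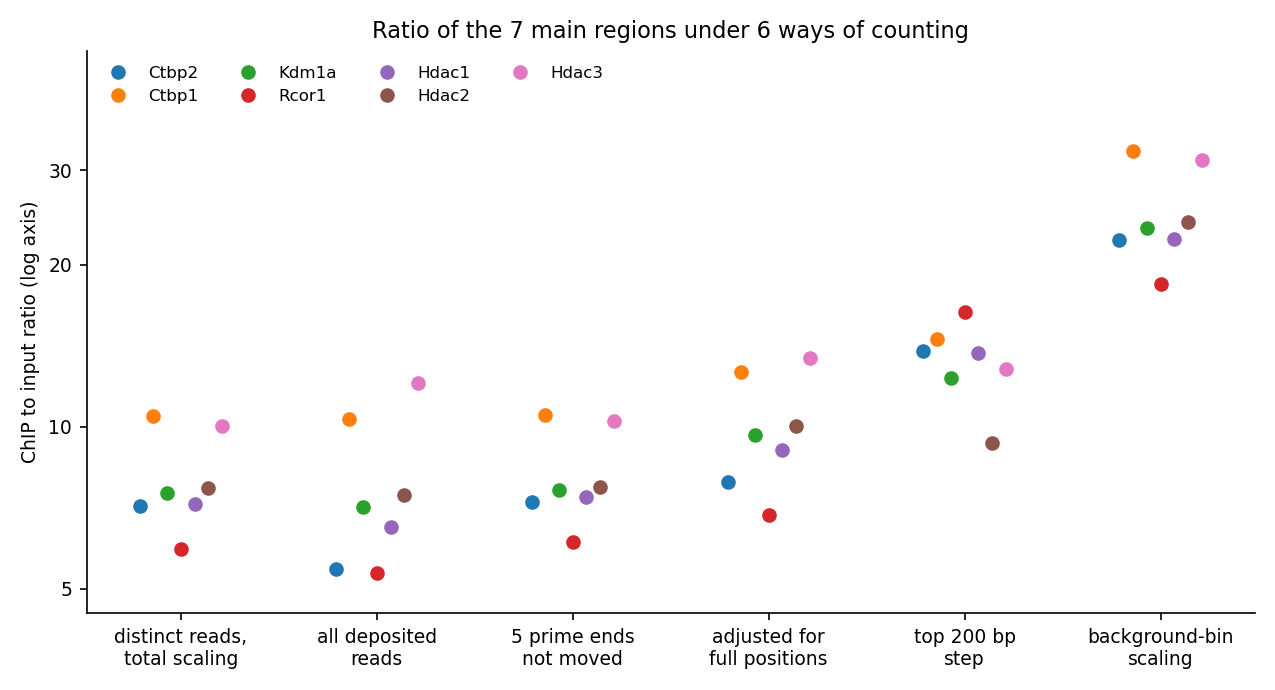
ChIP to input ratio of the main region of each gene window (1 point per window, log axis) under 6 ways of counting. Rcor1 is lowest in all but the top-step setting, where it is highest at 16.3. Background-bin scaling raises all 7 main regions, to between 18.4 and 32.6.

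Distance from the summit gave the reach of the signal. Within 0.5 kb of the top step ChIP density ran from 410 reads per kb (Ctbp2) to 998 (Ctbp1). Between 1 and 2 kb it had fallen to 1 to 3 reads per kb at Ctbp1, Hdac2, Hdac3 and Kdm1a. It was still 29 at Hdac1, 38 at Rcor1 and 217 at Ctbp2. From 2 to 5 kb all 7 were at 0.5 to 2 reads per kb, near the genome value outside regions. Only the Ctbp2 region thus kept a ChIP density above 200 reads per kb beyond 1 kb from its top step.

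These values rested on the scaling and on the treatment of dense input. Scaling on background bins, a factor of 0.218, raised the median ratio from 7.52 to 23.4 and the number of regions in the windows from 14 to 24. Leaving out dense input gave 12 regions, which need not lie where the 14 lay.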

How the data were processed

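Each deposited file listed aligned reads of 1 library, with genome coordinates in bp (no other kind of value) on mm9. Per the submitters' processing notes BWA, SAMtools 0.1.19 and bedtools 2.17.0 were used; settings and read filters are not given in the sources used here. The name column of the deposited files, taken as a count, is 1 on every line, and the deposited score is 0 throughout. Reads span 33 to 38 bp. Python 3.11.15, NumPy 2.4.6, SciPy 1.17.1 and matplotlib 3.10.9 were used.

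Distinct 5 prime ends were moved 110 bp toward the fragment centre (fragment length 225 bp in ChIP). A Poisson test in overlapping 200 bp windows, 50 bp apart, set the ChIP count against the genome mean or the scaled input over 1, 5 or 10 kb, whichever was highest. Calls needed a Benjamini-Hochberg adjusted p of at most 0.01 and a fold of at least 3. Called windows were joined within 200 bp, with no exclusion of dense input, and the call was tested on simulated data. Counts have exact Poisson intervals and ratios exact Clopper-Pearson intervals on the ChIP share. All 7 genes are named by rule. Genes, windows and settings were chosen with earlier results of these data known. A planned list of other corepressor genes needed an mm9 annotation and was not run.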

Additional observations from a re-analysis of the deposited data

How the results depend on the processing

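No paired analysis was possible because there was a single library of each kind. The number of regions in the 7 windows was 14, and 7 of 8 alternatives gave 12 to 17, whereas background-bin scaling gave 24. Counts per window moved as well. Over all settings they ran from 3 to 5 for Hdac3, 1 to 4 for Kdm1a, 0 to 7 for Rcor1 and 0 to 3 for Ctbp1. The median ratio of the main regions, 7.52, was 7.09 with all deposited reads and 7.62 with 5 prime ends not moved. All deposited reads had a scaling factor of 1.675, against 0.679 for distinct reads, so reads and scaling changed together. The median ratio was 23.4 with background-bin scaling and 13.7 in the top 200 bp step. With counts adjusted for full positions, a setting added after the values were seen, it was 9.65. The median ratio against the own window, 18.3, was 29.9 with all deposited reads and 19.5 against sequence more than 5 kb from any region. Ratios were recomputed over fixed regions, so they do not carry the other call settings. Without replicates, only counting error was measured.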
